A study of Homo sapiens with 2 samples.

Results

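The genes described here encode enzymes and scaffolds of 5 DNA repair routes outside homologous recombination: direct reversal, mismatch repair, base excision and single-strand break repair, nucleotide excision repair, and end joining of broken DNA. A list of 39 genes was taken by name, and a probe set (a group of array probes read as 1 value) was used where its only gene symbol was on the list. Of the 39 genes, 36 had such a probe set, with 84 probe sets among them, out of 19775 genes and 54675 probe sets on the array. PMS2, NEIL1 and NHEJ1 had none and were not analysed here. RNA came from 2 samples labelled as U87, an established human glioblastoma line, 48 hours after transient transfection with Lipofectamine. The first was labelled as having received the control, a none target siRNA, and the second an siRNA to FOXM1, which encodes a forkhead factor that acts in the cell division cycle. Their arrays are called the control array and the FOXM1 siRNA array below, as labelled. Each sample was hybridised to 1 array, so no test between the conditions and no replicate error was possible. The siRNA sequences and doses were not among the labels.

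Cells use these routes for different kinds of damage. Direct reversal removes an alkyl group from guanine without cutting the strand, mismatch repair removes replication errors, and base excision repair replaces small damaged bases after a glycosylase has cut them out. Nucleotide excision repair removes bulky lesions such as those made by ultraviolet light, and end joining ligates broken ends without a template. In glioma, MGMT and mismatch repair are known for their bearing on the response to the alkylating drug temozolomide.

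The check of the targeted gene came first: the FOXM1 probe set read 1520 on the control array and 1343 on the FOXM1 siRNA array, a log2 difference of -0.18. All differences below are the FOXM1 siRNA array minus the control array, on the authors' scaling. The floor below which a signal is not told from background, taken as the 90th percentile of olfactory receptor probe sets, was 60.8 (control) and 77.7 (FOXM1 siRNA), and lower signals were raised to it. Markers of the labelled cell type gave a mixed picture. The mesenchymal genes VIM (21179 and 40017) and CD44 (2222 and 29344, a log2 difference of 3.72) were well above the floor on both arrays, and GFAP was below it on both. Of the 5 glial and mesenchymal markers 3 were above it on each, with a summed signal of 23559 and 69629. All 3 of the 9p21 genes that U87 cells are known to lack (CDKN2A, CDKN2B and MTAP) were above it on the control array. Their summed signal was 4436 there and 529 on the other array, where CDKN2A alone was above the floor. Epithelial markers were above the floor for 3 of 5 genes on each array (summed signal 3055 and 768), neuronal markers for 2 of 3 on each (553 and 2301) and haematopoietic markers for none of 2 on either. The ratio of the signals from both ends of the ACTB transcript, a measure of RNA integrity, was 6.79 and 4.21. For GAPDH this ratio was 1.26 and 1.09. An effect of the siRNA and a difference between the cells cannot be told apart in any result below, and the part of RNA integrity was not tested.

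As a whole, the repair genes were shifted slightly down rather than unusually often past 2-fold. Each gene is given by its brightest probe set, with the highest log2 signal on average, and was called detected where this lay above the floor on 1 array or both, which held for 34 of the 36 genes. Of these 34, 5 were at least 2-fold lower on the FOXM1 siRNA array, against 15.4% of all 13865 detected genes, and 5 were at least 2-fold higher, against 16.0%. In either direction this was 29.4% of the repair genes beside 31.4% of all detected genes, so the share past 2-fold was near the background. The median log2 difference of the repair genes was -0.39, beside 0.01 for all detected genes. Of the 34, 22 lay below 0 (64.7%, beside 49.6% of all detected genes). In these bulk samples, fewer cells with a transcript and less RNA per cell cannot be told apart. Log2 differences from -0.5 to just short of -1 were found for 11 repair genes, or 32.4%, beside 14.2% of all detected genes. At a 1.5-fold threshold 15 were lower, beside 26.8% of all detected genes, and 7 higher, beside 26.1%. With the hybridisation controls set equal in place of the authors' scaling, the split was 10 lower and 4 higher, beside 23.1% and 11.3% of all detected genes. With median centring it was 6 lower and 4 higher, beside 19.1% and 13.3%. The first of these scalings moved the median of all genes to -0.29 and that of the repair genes to -0.70, so the gap of -0.40 between them was the same, as it must be after a uniform shift.

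**Figure D1:**
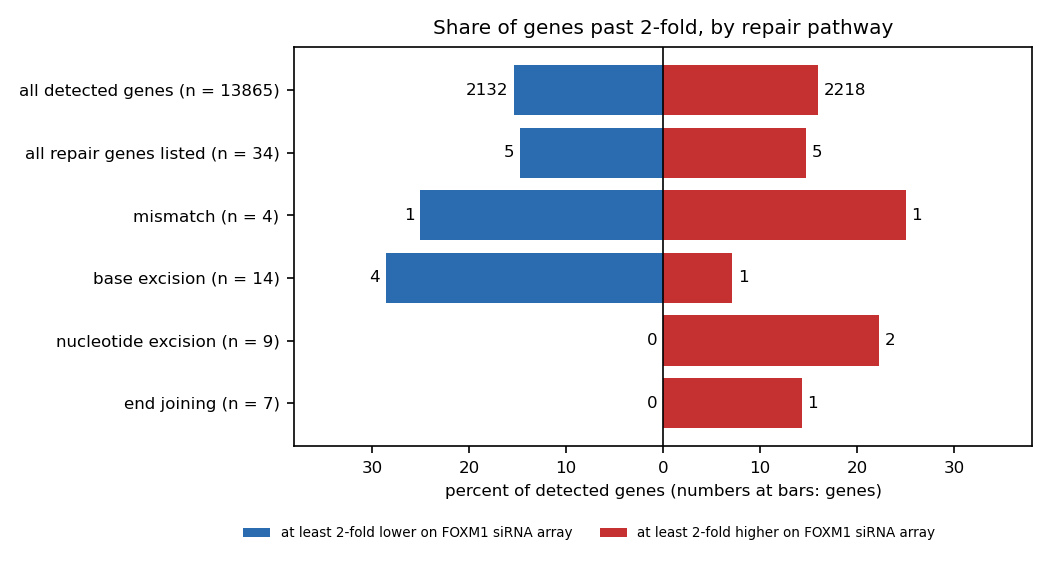
Percent of detected genes at least 2-fold lower (bars to the left) and at least 2-fold higher (bars to the right) on the FOXM1 siRNA array, for all detected genes, the 34 repair genes and 4 of their pathways, with the number of genes at each bar. Base excision repair held 4 of the 5 lower genes, and nucleotide excision repair and end joining held none.

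Precision could be judged only within the arrays. In 5476 genes that had 2 or more probe sets above both floors, the gap between the log2 differences of the brightest 2 had an SD of 0.65, and in the 20 repair genes of this kind an SD of 0.39. This spread covers probe sets and leaves out differences between cultures. Among the 10 repair genes past 2-fold, 6 had further measurable probe sets. Of these 12 further probe sets, 11 went the same way and 9 were themselves past 2-fold.

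**Figure D2:**
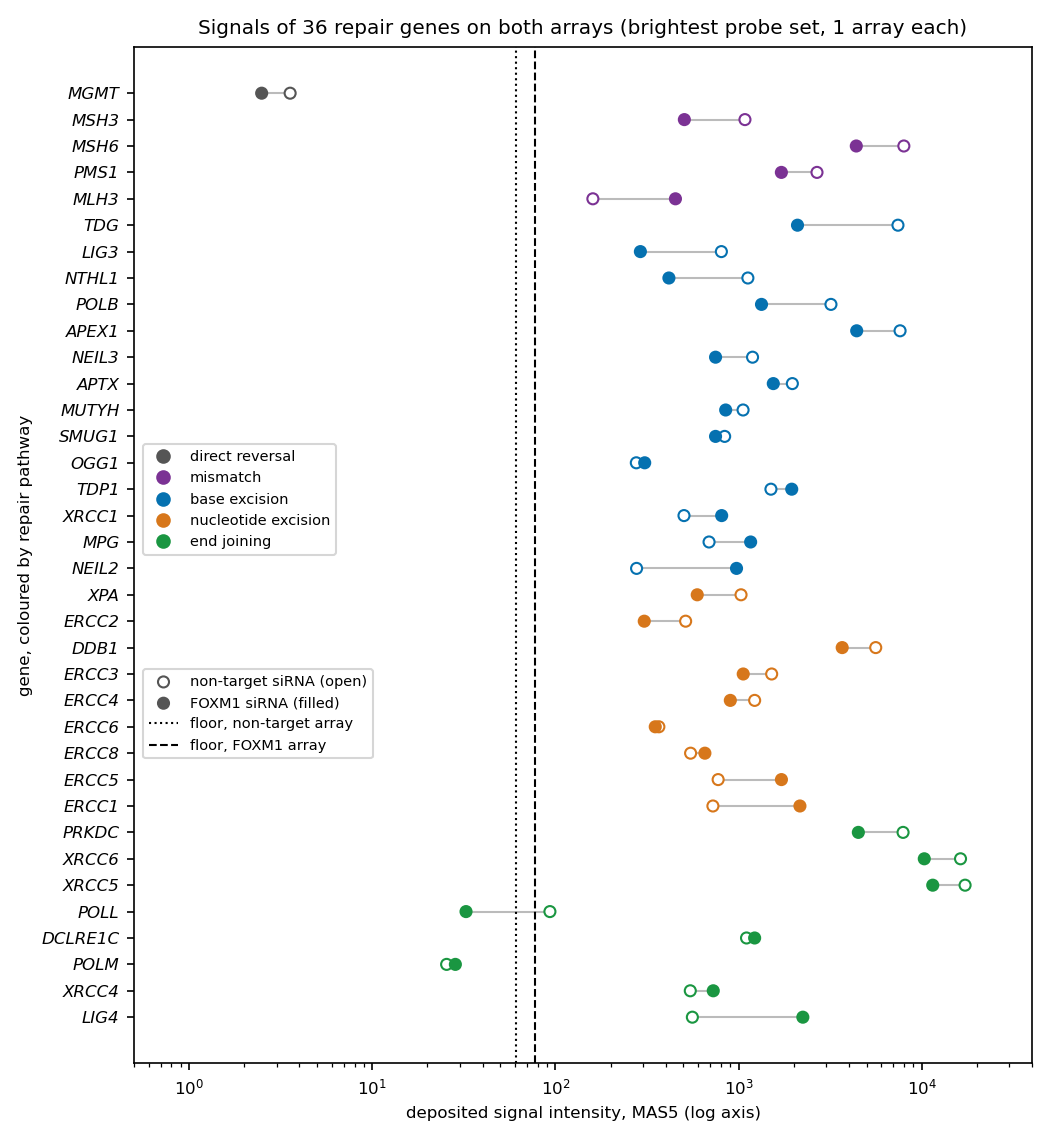
Deposited signal of the brightest probe set of each of 36 repair genes on a log axis, with open circles for the control array, filled circles for the FOXM1 siRNA array, colours for the pathways and vertical lines for the floors of both arrays. MGMT and POLM lie below the floors on both arrays, and POLL lies above on the control array only.

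Direct reversal was represented by MGMT, the methyltransferase that takes alkyl groups off guanine, and its transcript was not detected. The probe set read 3.56 on the control array and 2.49 on the FOXM1 siRNA array, both far below the floors, so no fold is given. U87 is widely used as a line that lacks MGMT. The dioxygenases ALKBH2 and ALKBH3, which also reverse alkylation and are not on the list above, were detected with log2 differences of -0.49 and -0.31.

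In mismatch repair, the subunits that recognise mismatches were lower and MLH3 was higher. MSH3, which recognises small loops, read 1083 on the control array and 505 on the other in its brightest probe set, 2.14-fold lower. A further probe set of MSH3 gave 832 against 420, 1.98-fold lower, so the gene sits at the threshold. MSH6, which recognises single-base mismatches, read 7985 against 4391 (log2 difference -0.86), and a dimmer probe set read 1502 against 618 (-1.28). The log2 differences of MSH3 and MSH6 were 0.24 apart, less than the SD of 0.65 between probe sets of one gene. The MutL homologue PMS1 was also lower, with 2679 against 1712 and a log2 difference of -0.65. Its 4 probe sets above both floors all lay below 0, from -1.32 to -0.18. MLH3, an endonuclease partner of the MutL complex, went the other way: 160 on the control array and 452 on the FOXM1 siRNA array, 2.82-fold higher. Both further probe sets of MLH3 differed more, at 4.05-fold (91.5 against 370) and 4.75-fold (80.8 against 384). The direction was thus the same in every probe set of MLH3, but the control signals of the further ones lay not far above the floor of 60.8. The log2 differences of PMS1 and MLH3 were 2.14 apart. This and the gaps between other partner genes below were picked out with the values known, and no spread between cultures was there to judge them by.

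The genes that act after mismatch recognition, taken as a list of 15, had a median log2 difference of -0.84. This list and the further lists below were chosen with earlier results of these data known. Their shares are therefore description only. Of these 15, 5 were lower by 2-fold or more (33.3%, beside 15.4% of all detected genes) and 1 was higher (6.67%, beside 16.0%). The lower genes were the exonuclease gene EXO1 (3901 against 946, -2.04), the ligase gene LIG1 (-1.60), the clamp loader genes RFC3 (-1.46) and RFC5 (-1.04) and the sliding clamp gene PCNA (16577 against 8002, -1.05). The higher gene was POLD4, a small subunit of polymerase delta, at 319 against 1370 (2.10). Most of these genes also serve DNA replication.

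Promoter sequence was available for 34 of the 39 genes from RefSeq (GRCh38.p14), as windows of 250 bases before to 50 after each start. NEIL2, XRCC5, SMUG1, PRKDC and POLB had no window. The windows were searched on both strands for an E2F motif (TTTCGCGC or TTTGGCGC), the cell cycle motif CHR (TTTGAA) and a forkhead motif (TAAACA). A match describes letters in the window and is not evidence of binding. E2F letters occurred in 2 of the 34 repair genes, beside 1.40% of 27305 genes with a window. The CHR letters occurred in 6 (17.6%, beside 18.2%) and the forkhead letters in 2 (5.88%, beside 14.7%). The forkhead matches were those of APEX1 and TDP1. One E2F match was in MSH3, shown from the match to the start site because it holds both forms of the motif, overlapping on opposite strands (chr5:80654545-80654651, + strand, capitals for the match):
MSH3: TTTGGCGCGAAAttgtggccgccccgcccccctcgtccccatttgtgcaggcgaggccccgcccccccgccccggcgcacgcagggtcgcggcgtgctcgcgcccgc
The other was in XRCC6, 43 bases after its start (chr22:41621315-41621344, + strand):
XRCC6: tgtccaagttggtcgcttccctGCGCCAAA
The log2 differences of these genes were -1.10 for MSH3 and -0.66 for XRCC6.

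Of 14 base excision repair genes, 4 were lower by 2-fold or more (28.6%, beside 15.4% of all detected genes). On the higher side there was 1 (7.14%, beside 16.0%). This route held the largest reductions among the repair genes. TDG, the glycosylase that removes thymine from G:T mispairs and the oxidised products of methylcytosine, had the largest. Its brightest probe set read 7415 on the control array and 2097 on the FOXM1 siRNA array, 3.54-fold lower. The other TDG probe set gave 424 against 200, 2.12-fold lower. Both probe sets were past 2-fold, although their log2 differences had an SD of 0.52. NTHL1, a glycosylase for oxidised pyrimidines, read 1123 against 416 in its only probe set, 2.70-fold lower. The other glycosylase genes of the list, apart from the NEIL genes described next, were under 2-fold. MPG, which removes alkylated purines, read 690 against 1163 (0.75). OGG1, which removes oxidised guanine, read 276 against 307 (0.15), and a further probe set went the other way (-0.20). MUTYH, which removes adenine paired with oxidised guanine, read 1058 against 850 (-0.32). SMUG1, a uracil glycosylase, read 839 against 748 (-0.17), while a second probe set read 414 against 581 (0.49). For OGG1 and SMUG1 the probe sets therefore gave no common direction.

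The NEIL glycosylases, which also act on oxidised bases, differed from each other. NEIL2 read 277 on the control array and 974 on the FOXM1 siRNA array, 3.51-fold higher, in its only probe set. NEIL3, which is expressed mainly in dividing cells, read 1191 against 748 (-0.67). NEIL2 was the only base excision gene of the list that was at least 2-fold higher.

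After the base is removed, APEX1 cuts the backbone, POLB fills the gap, and LIG3 with its scaffold XRCC1 seals it. APEX1 read 7615 against 4414 (-0.79). POLB read 3193 against 1334, 2.39-fold lower. The other POLB probe sets were below both floors. LIG3 read 805 against 291 in its brightest probe set, 2.77-fold lower. All but 1 of the further LIG3 probe sets were lower too. The brightest of these on the control array read 872 against 207 (4.21-fold lower). The next pair read 792 against 270 (2.93-fold) and 675 against 342 (1.97-fold). The remaining one read 240 against 53.8, below the floor there, and was at least 3.09-fold lower. A sixth LIG3 probe set, dim on both arrays, went the other way (53.3 against 109, at least 1.79-fold higher). XRCC1 was higher, with 503 against 808 (0.68). The log2 differences of LIG3 and its scaffold XRCC1 were 2.15 apart. APTX and TDP1, which clean up blocked ends at single-strand breaks, were at -0.35 (1965 against 1546) and 0.38 (1501 against 1950). Their second measurable probe sets gave nearly equal signals on both arrays, at -0.01 for APTX (702 against 698) and -0.03 for TDP1 (211 against 206).

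Of 6 measured genes from a further list for this pathway, 2 were lower by 2-fold or more (33.3%, beside 15.4% of all detected genes) at a median of -0.73. All 6 lay below 0, beside 49.6% of all detected genes. The 2 genes past 2-fold were PARP1, the sensor of strand breaks (12297 against 1983, -2.63), and UNG, the main uracil glycosylase (6027 against 2580, -1.22). At 4 of 14 lower, or 28.6%, the listed base excision genes lay above the 15.4% of all detected genes, but without _s_at and _x_at probe sets, which can match several transcripts, NTHL1 and POLB alone remained of the lower genes. LIG3 was then at -0.98 by its brightest remaining probe set, and TDG had no other probe set. The LIG3 probe sets that read 792 against 270 (-1.55) and 872 against 207 (-2.07) also remained and were past 2-fold lower. The dim LIG3 probe set that went the other way remained too.

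After the promoter windows had been read, it was seen that TDG, LIG3 and NTHL1 share the E-box letters CACGTG, which read alike on both strands, and the count was made then. They are shown because these genes are the lowest 3 of the list and the match lies within 80 bases of the start in each. TDG is given at chr12:103965722-103965871 (+ strand), LIG3 at chr17:34980362-34980511 (+ strand) and NTHL1 at chr16:2047835-2047894 (- strand), each ending at the base before the start:
TDG: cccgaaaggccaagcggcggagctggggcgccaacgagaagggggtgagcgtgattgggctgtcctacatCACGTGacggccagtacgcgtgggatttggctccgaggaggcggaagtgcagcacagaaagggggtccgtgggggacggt
LIG3: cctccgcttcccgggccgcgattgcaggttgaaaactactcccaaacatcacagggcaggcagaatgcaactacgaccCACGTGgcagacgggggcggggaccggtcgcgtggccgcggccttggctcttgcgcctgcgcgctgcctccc
NTHL1: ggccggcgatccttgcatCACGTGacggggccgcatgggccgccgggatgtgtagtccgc
The letters begin 80, 72 and 42 bases before the start of TDG, LIG3 and NTHL1. Across the list they occurred in 6 of 34 genes (17.6%), beside 8.77% of all genes with a window. TDG, LIG3 and NTHL1, in which the letters were first seen, are part of this share and raise it. The other 3 were APEX1, ERCC6 and MPG, whose log2 differences of -0.79, -0.07 and 0.75 had no common direction. Of the genes past 2-fold that had a window, 3 of 4 on the lower side held them, MSH3 being the exception, and none of 4 on the higher side. As the letters were picked for TDG, LIG3 and NTHL1, the count on the lower side was set by that choice. A gene can have several starts. Counted by window, the letters occurred in 11.3% of the 53 repair gene windows and in 7.26% of all windows, with the same limit.

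**Figure D3:**
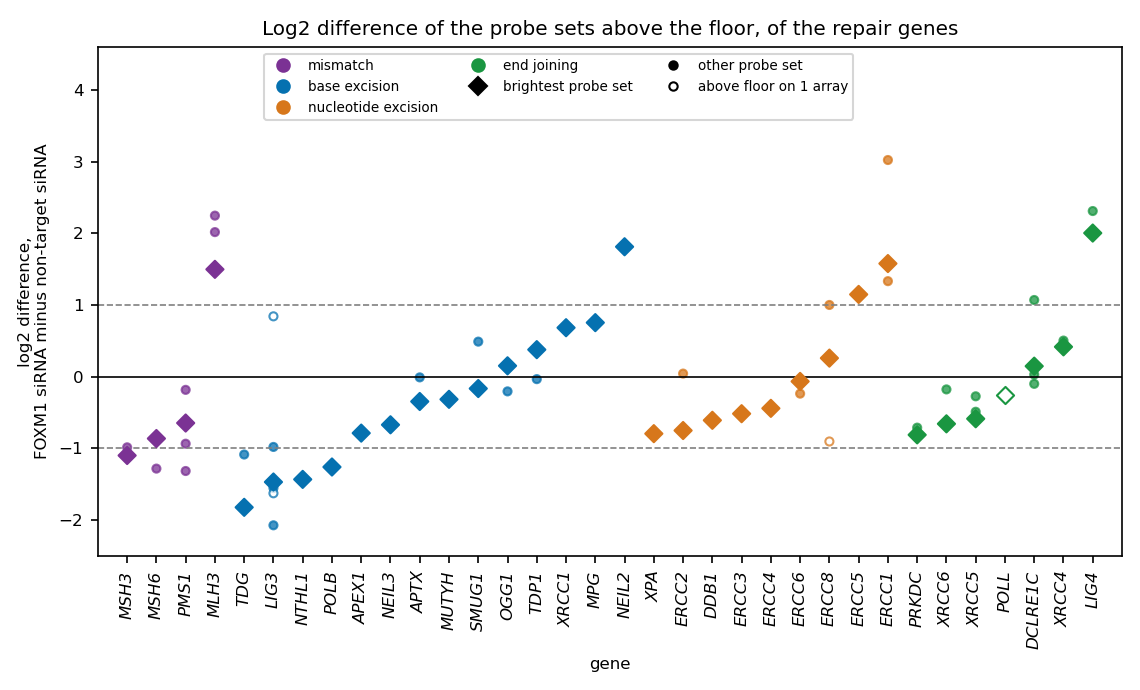
Log2 difference (FOXM1 siRNA array minus control array) of each measurable probe set of the 34 detected repair genes, ordered by pathway and value, with diamonds for the brightest probe set, circles for the others, open symbols where the signal was above the floor on 1 array only, and dashed lines at 2-fold. The probe sets of MLH3, ERCC1 and LIG4 all lie above the upper line, and those of LIG3 spread from -2.07 to 0.84.

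In nucleotide excision repair, ERCC1 and ERCC5 were higher by 2-fold or more among 9 genes, none was lower by as much, and the median log2 difference was -0.44. The share higher was 22.2%, near the 16.0% of all detected genes, and rests on these 2 genes. With the hybridisation controls set equal, XPA (-1.10) and ERCC2 (-1.05) were past 2-fold on the lower side and ERCC5 was under 2-fold. ERCC1, the regulatory subunit of one of the incision nucleases, read 724 on the control array and 2162 on the FOXM1 siRNA array, 2.99-fold higher. A second ERCC1 probe set read 716 against 1805 (2.52-fold higher). The third read 238 against 1939 (8.13-fold higher), so the probe sets shared a direction but not a size. ERCC4, the catalytic partner of ERCC1, was slightly lower, with 1223 against 901 (-0.44). Their log2 differences were 2.02 apart by brightest probe set, while those of the ERCC1 probe sets alone had an SD of 0.91. ERCC5, the nuclease that cuts on the other side of the lesion, read 773 against 1713 in its only probe set, 2.22-fold higher.

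Of the 4 listed genes for lesion recognition and unwinding (XPA, DDB1, ERCC2 and ERCC3), each was below 0 by less than 2-fold in its brightest probe set. XPA, which verifies the damage, read 1031 against 594 (-0.79). DDB1, an adaptor of the ubiquitin ligase that binds ultraviolet lesions, read 5607 against 3678 (-0.61). The TFIIH helicase genes gave similar values: ERCC2 read 514 against 305 (-0.75) and ERCC3 1515 against 1060 (-0.52), 0.23 apart. The second ERCC2 probe set gave nearly equal signals (172 against 177, 0.04). ERCC6 and ERCC8, which couple repair to transcription, lay near 0, with 367 against 351 (-0.07) and 547 against 654 (0.26). The 4 measurable probe sets of ERCC8 disagreed, since a dim one read 81.2 against 162 and another 145 against 50.1, at least 1.87-fold lower. Of 13 measured genes from a further list for this route, which holds other TFIIH and lesion recognition genes, none was at least 2-fold different in either direction, beside 31.4% of all detected genes. Their median was 0.05, and their range ran from -0.87 (GTF2H3) to 0.74 (CDK7). Of the 13, 7 lay above 0 and 46.2% below it, beside 49.6% of all detected genes below 0. Among them the lesion recognition gene DDB2 was at 0.56 and the TFIIH gene GTF2H1 at 0.39, so recognition and TFIIH genes had no common direction.

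ERCC1 has 3 RefSeq starts. The window of its middle start holds the CHR letters, 147 bases before the start, and is shown as the only such match among the repair genes past 2-fold that have a window (chr19:45423918-45424107, - strand, capitals for the match):
ERCC1: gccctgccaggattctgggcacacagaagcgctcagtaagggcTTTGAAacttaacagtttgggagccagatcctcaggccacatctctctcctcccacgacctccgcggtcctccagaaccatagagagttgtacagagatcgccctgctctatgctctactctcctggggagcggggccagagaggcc
The array values do not tell which start was used.

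In end joining, LIG4 was the 1 gene past 2-fold of 7 detected, on the higher side, and none was lower by as much. At 14.3% higher this was near the 16.0% of all detected genes. With the hybridisation controls set equal, PRKDC (-1.11) was past 2-fold on the lower side. The Ku subunit genes XRCC5 and XRCC6, whose products form a ring on broken ends, read 17244 against 11482 (-0.59) and 16284 against 10324 (-0.66). The Ku genes differed from each other by 0.07, and their dimmer probe sets were nearer to 0, at -0.27 and -0.49 for XRCC5 and -0.18 for XRCC6. PRKDC, the catalytic kinase subunit that Ku recruits, read 7907 against 4506 (-0.81), and a second probe set gave -0.71. LIG4, the ligase of the final step, went the other way. It read 559 on the control array and 2243 on the FOXM1 siRNA array, 4.01-fold higher, and its other probe set read 168 against 835, 4.96-fold higher. This was the largest difference in either direction among the 34 detected repair genes by brightest probe set. XRCC4, the obligate partner of LIG4, was only slightly higher, with 545 against 727 (0.42). Its 3 probe sets above both floors lay between 0.42 and 0.50. The log2 differences of LIG4 and XRCC4 were 1.59 apart.

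The end-processing genes of this route gave little. DCLRE1C, the Artemis nuclease, read 1105 against 1223 (0.15). A further DCLRE1C probe set gave 149 against 312 (1.07) and another -0.10. The polymerase gene POLL read 93.2 on the control array and 32.5, below the floor, on the other, at least 1.20-fold lower. POLM, a related polymerase, read 25.4 and 28.4, below both floors, and is given no fold. Of 6 detected genes from a further list for end joining, 1 was lower by 2-fold or more (16.7%, beside 15.4% of all detected genes) and none was higher, at a median of -0.77. The lower gene was the ubiquitin ligase gene RNF8 (2069 against 798, -1.37). TDP2, which removes trapped topoisomerase from ends, lay just inside the threshold (5895 against 2949).

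MLH3 and LIG4 share the letters GCATGCGC of an NRF1 motif, counted after the windows had been read. They are shown as the higher genes that hold it (MLH3 at chr14:75051468-75051617, LIG4 at chr13:108218367-108218396, the most upstream of its 5 starts, both on the - strand):
MLH3: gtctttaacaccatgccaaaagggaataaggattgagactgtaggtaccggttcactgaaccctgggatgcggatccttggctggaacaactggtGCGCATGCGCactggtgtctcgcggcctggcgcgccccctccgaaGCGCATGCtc
LIG4: gctcttccgaGCATGCGCagaagccgctgc
The letters occurred in 7 of 34 repair genes (20.6%), beside 3.68% of all genes with a window, and in 13.2% of the windows of the repair genes, beside 3.05% of all windows. As the motif was picked after the windows had been read, these shares are description only, and MLH3 and LIG4 are part of them. The other 5 were ERCC6, MGMT, NEIL3, TDP1 and XRCC6, of which MGMT was not detected and NEIL3 and XRCC6 were lower (-0.67 and -0.66).

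**Figure D4:**
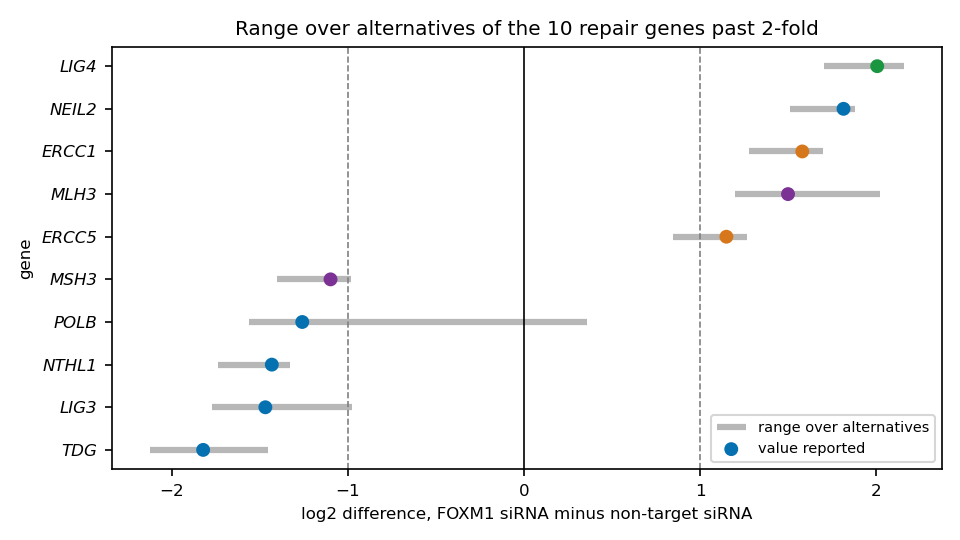
Log2 difference (FOXM1 siRNA array minus control array) of the 10 repair genes past 2-fold, with points for the value reported and bars for its range over up to 10 alternatives of scaling, floor and choice of probe set, and dashed lines at 2-fold. LIG4, NEIL2, ERCC1, MLH3, NTHL1 and TDG stay past 2-fold over their whole bar, and POLB runs from -1.56 to 0.35.

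Of the 10 repair genes past 2-fold, 6 were so under every alternative that gave them a value: LIG4, NEIL2, ERCC1 and MLH3 on the higher side and NTHL1 and TDG on the lower. Of these, MLH3 and TDG had no value without _s_at and _x_at probe sets. ERCC5 was at 0.84 with the hybridisation controls set equal. MSH3 was at -0.99 with the median of its probe sets. Of the genes under 2-fold above, MSH6, APEX1, XPA, ERCC2 and PRKDC were past it on the lower side with the hybridisation controls set equal. MSH6 was so with median centring too. OGG1, ERCC8 and DCLRE1C, close to 0 above, changed sign with the hybridisation controls set equal, to -0.15, -0.04 and -0.16.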

How the data were processed

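Each array gave 1 deposited intensity per probe set on a linear scale, made by the authors with MAS5, per the submitters' processing notes; no version or setting is given in the sources used here. The mean after trimming 2% from both ends was 500.07 on each array, and the number of arrays limits the precision. Gene names came from the platform annotation: 41097 probe sets had 1 symbol, 1801 had several and named no gene, and others had none. Symbols were updated by gene ID (GRCh38.p14 table). The floor came from 135 olfactory receptor probe sets. Counts use a 2-fold threshold on log2 differences computed here; above the floor on 1 array, a fold is a bound. Every measured list member is reported, and other pathway genes past 2-fold are named. Members, lists and alternatives were chosen with earlier results of these data known. The calculation was tested on simulated data. Alternatives of scaling used limma 3.58.1 (quantile; loess, span 0.3) and R 4.3.3, and all else Python 3.11.15, numpy 2.4.6 and pandas 2.3.3.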

Additional observations from a re-analysis of the deposited data

How the results depend on the processing

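The count of repair genes at least 2-fold lower, 5 as reported beside 15.4% of all detected genes, was 10 (29.4%, beside 23.1%) with the 18 hybridisation control probe sets set equal, a shift of 0.30 on the log2 scale. It was 3 (8.82%, beside 10.7%) with the median over the probe sets of each gene and 2 (8.0%, beside 15.1%) without _x_at and _s_at probe sets, where 25 of the 34 genes could be measured. At a 1.5-fold threshold 15 were lower (44.1%, beside 26.8%). The higher count lay between 4 and 7 over all alternatives, and the median between -0.70 and -0.20. The mean over the repair genes was -0.16, nearer to 0 than their median of -0.39. With the median of probe sets POLB was at 0.35, which is the ratio of the 2 floors, since its other probe sets lay below both. Of 330 values of single genes under 10 alternatives, 322 moved by less than the SD of 0.46 per probe set and 7 by more without a change of sign in a gene past 2-fold. Median centring and the hybridisation controls shifted all genes by 1 amount below this SD. A changed floor left genes above it as they were. Many of these values could therefore not move by more, and the tally does not measure precision. The low signals of MGMT, POLM and POLL allow no fold or only a bound. No paired analysis was possible because each group holds 1 array.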

Other observations

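The genes next to the repair genes past 2-fold, 5 detected ones on each side in chromosome order, gave these values. For comparison, 31.4% of all detected genes were past 2-fold, 16.0% on the higher side and 15.4% on the lower. ERCC5 and LIG4 lie on chromosome 13 with 4 detected genes between them, 3 of them at least 2-fold higher, with none lower, on the FOXM1 siRNA array (median log2 difference 2.43, range 0.67 to 3.64). The 10 neighbours of ERCC5 had a median of 0.82, with 4 higher and none lower, and those of LIG4 a median of 0.88, with 5 higher and 2 lower (lowest -3.04). These sets overlap. Over 255 detected genes of that chromosome the median was 0.07, with 43 higher and 49 lower. The 10 neighbours of NEIL2 had a median of 1.07, with 5 higher and 2 lower, and those of NTHL1 one of -0.74, with none higher and 5 lower. Around ERCC1 none of 10 neighbours was past 2-fold (median 0.15), nor around MSH3 (median -0.09). The neighbours of LIG3 had a median of 0.34, with 4 of 10 higher (up to 3.32) and 1 lower. Those of TDG (median 0.19) and MLH3 (0.18) had 1 higher and 1 lower each, and those of POLB (-0.11) none higher and 1 lower. These genes were looked at after the values were seen, and whether neighbours share a direction more often than other genes was not tested.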
